A study of Homo sapiens with 6 samples.

Results

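The genes described here are the 6 subunits of the replicative helicase, MCM2 to MCM7, and 4 genes of its loading and activation, CDC6, CDT1, GMNN and MCM10. They were measured in HEK293, an embryonic kidney cell line of human origin, 72 h after transfection with siRNA against BAHD1 or with control siRNA. Each group held 3 replicates that the labels call biological, without naming separate cultures, and each sample gave 1 array. Both groups received their siRNA with the same lipid carrier and grew in the same medium, and no siRNA sequence was used here. Members were chosen by gene symbol: of 54613 probe sets on the array that are not controls, 41091 are annotated with 1 gene, and 21 of these carry a member. The test kept 20 of the 21, because 1 probe set of MCM4 was dim on all arrays (signals 0.9 to 8.5). BAHD1 is a chromatin protein known for gene silencing and heterochromatin formation, and the comparison asks which transcripts change when it is depleted.

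Before S phase, the origin recognition complex and CDC6 bind origins of replication, and CDT1 brings the ring of MCM2 to MCM7 that they load around DNA. This is licensing. Geminin, the product of GMNN, binds CDT1 and blocks further loading once replication has begun, and MCM10 helps to turn the loaded ring into an active helicase. Genes of this group are known targets of E2F transcription factors and are transcribed most strongly around the start of S phase in dividing cells.

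Promoter sequences are shown because E2F control is the textbook link between these genes, and because CDC6 and MCM10 had the most negative log2 differences, BAHD1 siRNA minus control. The RefSeq table of build GRCh38.p14 held 11 promoter entries for 8 members (3 for MCM7, 2 for GMNN, 1 for each of the others), each 300 bases long, from 250 before to 50 after a start. MCM4 and MCM5 are named only. An E2F-type match was any of TTTCCCGC, TTTCGCGC, TTTGCCGC or TTTGGCGC on either strand, and a CCAAT box was CCAAT on either strand. Of the 8 members, 7 held an E2F-type match in 1 entry each and 6 held a CCAAT box. Over all 35116 entries the shares were 3.31% and 34.6%, and over all 27305 genes with an entry they were 3.99% and 39.7%. In the stretches below, written 5′ to 3′ on the strand of the gene, capitals mark both kinds of match.
CDC6, chr17:40287749-40287898, plus strand: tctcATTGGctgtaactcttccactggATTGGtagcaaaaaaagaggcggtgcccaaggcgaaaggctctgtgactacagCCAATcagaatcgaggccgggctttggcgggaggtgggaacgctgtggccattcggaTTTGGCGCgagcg
MCM10, chr10:13161428-13161577, plus strand: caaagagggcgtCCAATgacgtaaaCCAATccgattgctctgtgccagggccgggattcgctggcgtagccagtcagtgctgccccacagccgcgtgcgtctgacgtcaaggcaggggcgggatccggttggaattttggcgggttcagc
MCM2, chr3:127598381-127598430, plus strand: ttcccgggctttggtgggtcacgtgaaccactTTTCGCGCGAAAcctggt
MCM6, chr2:135876518-135876603, minus strand: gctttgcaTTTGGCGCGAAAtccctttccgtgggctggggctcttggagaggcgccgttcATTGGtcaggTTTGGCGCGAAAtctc
CDT1, chr16:88803739-88803798, plus strand: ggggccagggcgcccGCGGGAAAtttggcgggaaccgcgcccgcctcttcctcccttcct
GMNN, chr6:24775308-24775373, plus strand: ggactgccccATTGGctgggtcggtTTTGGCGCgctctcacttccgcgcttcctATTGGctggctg

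In CDC6 the E2F-type match began 8 bases into the transcript. In MCM2 a match on each strand overlapped its partner, the first beginning at base 3 of the transcript. MCM6 held the same arrangement in 2 places, beginning at positions -152 and -90 from the start. MCM10 had lower signals under BAHD1 siRNA in all 3 of its probe sets. It held none of the listed E2F-type strings in this window, which says only that those exact letters are not there. Its printed stretch holds tttggcgg, which differs from the listed TTTGGCGC only in the last base and was not counted. The stretches of CDC6 and CDT1 hold the same uncounted letters. A match describes letters and is not evidence of a bound site.

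The array facts that touch all members are few. Median signal per array ran from 15.8 to 19.5, and pairs of arrays correlated at r = 0.974 to 0.978 within groups and 0.966 to 0.972 between groups, over kept probe sets. Of 9 HEK293 marker genes, 8 were annotated and 7 passed the filter, with vimentin (VIM) at 2652.6 to 3679.3 and the neurofilament gene NEFL at 540.0 to 841.1. EYA1 (97.1 to 114.9), PAX2 (24.3 to 46.1) and KRT8 (26.2 to 40.7) passed at lower signals, whereas LHX1, at 1.2 to 24.7, did not. Of 14 markers of other cell types, 13 were annotated and 5 passed, among them ACTA2 (207.1 to 249.5), COL1A1 (127.3 to 207.3) and EPCAM (34.1 to 69.5). PTPRC, ALB, CDH5 and CD14 had signals of 11.6 or less on every array. The summed signal of these 13 was 488.9 to 550.3 on control arrays and 563.8 to 589.1 on BAHD1 siRNA arrays, mostly from ACTA2 and COL1A1, whereas that of the HEK293 markers was 4573.1 to 5030.3 and 4241.2 to 4521.7. The 24 probe sets for poly-A RNAs added before labelling had a median log2 difference of 0.58, higher on BAHD1 siRNA arrays and without overlap for any of the 24, and the 3' to 5' signal ratio of GAPDH was 0.926 to 0.955 against 0.956 to 0.966, while that of ACTB overlapped (1.47 to 1.54 against 1.49 to 1.67). The part of these differences in the results below was not tested. The targeted gene BAHD1, read by 1 probe set, had signals of 62.9, 55.7 and 46.7 on control arrays and 36.6, 46.8 and 41.2 on BAHD1 siRNA arrays, a log2 difference of -0.40 with an SE of 0.19 that did not pass (limma, intensity-trend fit, adjusted p = 0.251).

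CDC6 was the only member to pass, and it did so only in the intensity-trend fit described below. It was lower in BAHD1 siRNA cells on both of its probe sets, at 65.3% and 79.9% of the control level. The 6 helicase subunits, CDT1, GMNN and MCM10 did not pass the test. The limma test was run in 2 forms. In the intensity-trend fit the prior for the variance depends on signal level, and 2 of the 20 kept probe sets passed there at a Benjamini-Hochberg adjusted p under 0.05, both of CDC6. Over all 27458 kept probe sets 4.45% passed (2.28% lower and 2.17% higher), and in the brightest quartile 5.59% passed as lower. With no adjustment 7 of the 20 had a p under 0.05, all lower, against 9.96% of all probe sets lower. Shares without adjustment are over all signal levels, whereas 17 of the 20 were in the brightest quartile, for which none is given. The other form, the fit with one prior, passed 0 of the 20 members and 0% of all probe sets. There 4 of the 20 had an unadjusted p under 0.05, all lower, against 7.86% of all probe sets lower and 4843 in both directions. The words "fell" and "rose" mean that a gene passed in the intensity-trend fit. In bulk RNA, fewer cells in a phase and less RNA per cell cannot be told apart.

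**Figure D1:**
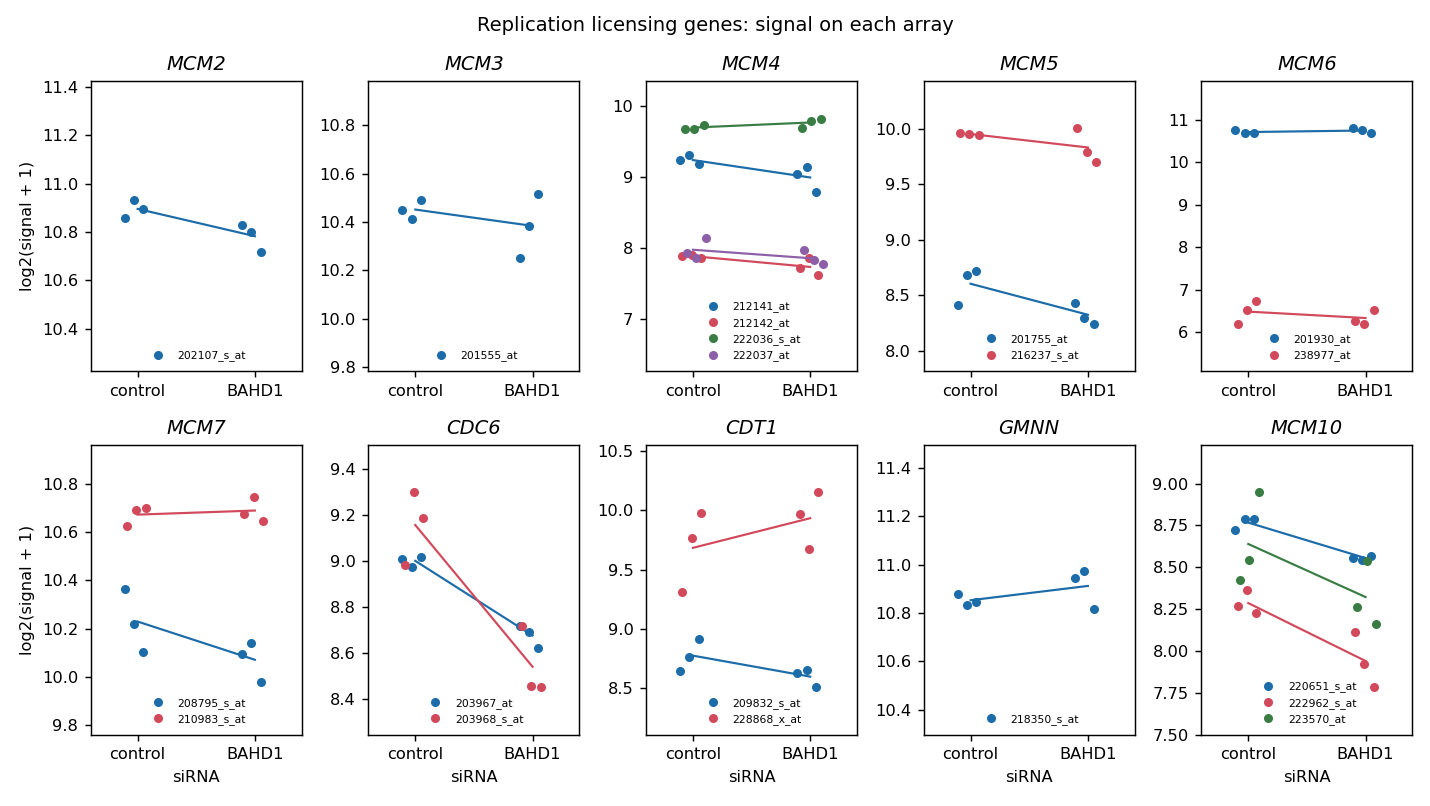
Signal on each array, as log2(signal + 1), for the 20 kept probe sets of the 10 genes, with control siRNA arrays on the left and BAHD1 siRNA arrays on the right of each panel. Points are arrays, lines join group means, colours are probe sets, and the vertical ranges differ between panels; both CDC6 probe sets separate the groups, while the brightest probe sets of MCM6 and MCM7 stay level.

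CDC6 encodes the ATPase that joins the origin recognition complex and makes loading of the helicase possible. It is read by a probe set with the suffix s_at, the one with the larger change, and a probe set with the plain suffix at. The s_at probe set had signals of 504.8, 628.7 and 581.2 on control arrays and 419.4, 350.1 and 349.0 on BAHD1 siRNA arrays. Every BAHD1 siRNA array lay below every control array. On the log2 scale the group means were 9.16 ± 0.16 for control and 8.54 ± 0.15 for BAHD1 siRNA (SD, n = 3 each). CDC6 thus fell by 0.61 on the log2 scale with an SE of 0.10 and a 95% interval of -0.83 to -0.40 (limma, intensity-trend fit, adjusted p = 0.00874).

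The plain CDC6 probe set had signals of 513.9, 501.7 and 517.5 on control arrays and 419.8, 412.5 and 392.5 on BAHD1 siRNA arrays. The groups were again apart, with less scatter inside each. It fell by 0.32 with an SE of 0.07 and a 95% interval of -0.48 to -0.17 (limma, intensity-trend fit, adjusted p = 0.0279). In the fit with one prior the adjusted p was 0.142 for the s_at probe set of CDC6 and 0.165 for the plain one. The exact two-sided permutation p was 0.1 for each, the smallest that 3 arrays against 3 can give.

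The probe sets differed in the size of the CDC6 change. Within arrays, the s_at value minus the plain value on the log2 scale was 0.16 ± 0.18 for control and -0.14 ± 0.12 for BAHD1 siRNA (SD, n = 3 each). That difference of -0.29 was not resolved by an exact two-sided permutation test (p = 0.2). Among all kept probe sets, the s_at probe set of CDC6 held rank 86 by p in the intensity-trend fit and rank 501 in the fit with one prior. The median size of the 1221 called changes was 0.45, which lies between the values of the 2 CDC6 probe sets.

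With 1 array left out in turn, the s_at probe set passed each time (intensity-trend fit), with log2 differences from -0.70 to -0.54 and adjusted p from 0.00647 to 0.0458. The call on the plain probe set was lost when control array 1 or 2 was left out (limma adjusted p = 0.079 and 0.0768) and when BAHD1 siRNA array 2 or 3 was left out (0.0926 and 0.115), at log2 differences from -0.34 to -0.30 over all 6 omissions. It was also lost when dim probe sets were kept in the test (adjusted p = 0.0685). With a stricter filter both CDC6 probe sets passed in the fit with one prior as well (adjusted p = 0.0199 and 0.0346), a setting in which 8.27% of all probe sets tested passed that fit.

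**Figure D2:**
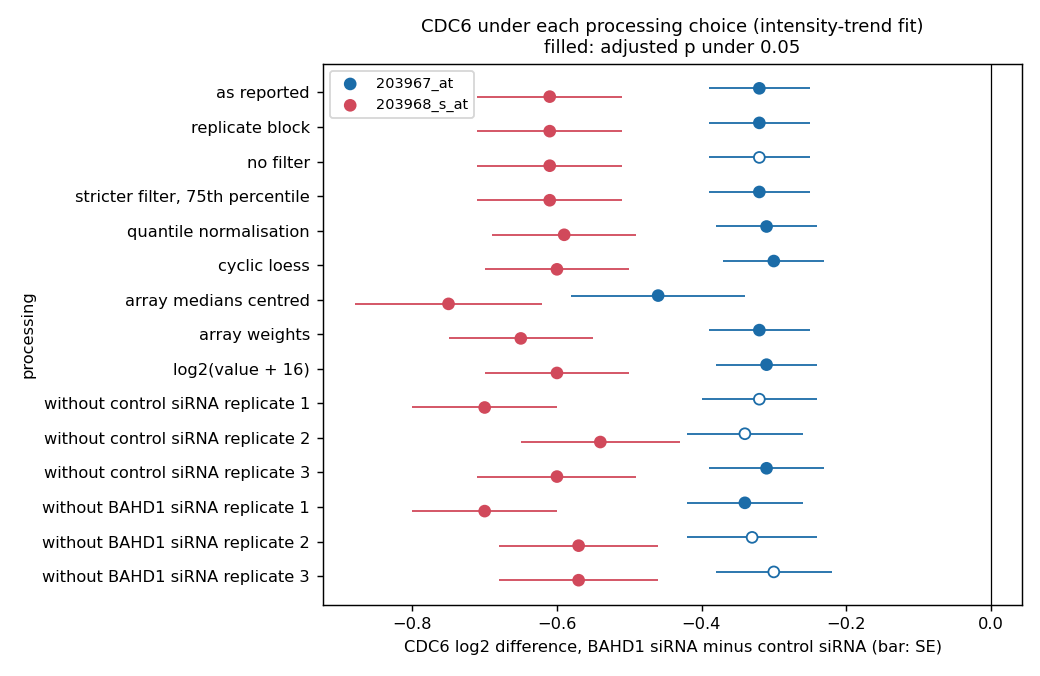
Log2 difference of the 2 CDC6 probe sets, BAHD1 siRNA minus control siRNA, under each processing choice and with each array left out, from the intensity-trend fit with SE bars; filled points have an adjusted p under 0.05. The s_at probe set (red) stays filled throughout between -0.75 and -0.54, and the plain one (blue) lies between -0.46 and -0.30 and is open in 5 of the 15 lines.

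CDT1 encodes the partner that carries the MCM ring to origins, and its 2 probe sets pointed in opposite directions. The dimmer one had signals of 399.1, 433.1 and 481.4 on control arrays and 394.7, 402.2 and 362.4 on BAHD1 siRNA arrays, with overlap at 1 array. Its log2 difference was -0.18 with a 95% interval of -0.36 to 0.01 (limma, intensity-trend fit, adjusted p = 0.268). The brighter one, whose suffix x_at marks probes that can bind other transcripts, had 632.8, 870.1 and 1004.8 against 1002.8, 816.1 and 1138.0. Its log2 difference was 0.25 with a 95% interval of -0.14 to 0.64, and neither probe set passed. The value of the brighter one was 0.06 without control replicate 1 and 0.40 without control replicate 3.

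GMNN encodes geminin, the inhibitor of CDT1. Its signals were 1883.6, 1822.5 and 1839.1 on control arrays and 1967.9, 2010.8 and 1804.2 on BAHD1 siRNA arrays. The groups overlapped, because the third BAHD1 siRNA array was the lowest of the 6. The log2 difference of GMNN was 0.06 with a 95% interval of -0.08 to 0.20 (limma, intensity-trend fit, adjusted p = 0.651).

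None of the 12 kept probe sets of MCM2 to MCM7 passed (limma, intensity-trend fit, adjusted p 0.117 to 0.909), and 2 of the 12 had an unadjusted p under 0.05. Of the 12, 9 lay below 0, with log2 differences from -0.28 to 0.07 and a median of -0.12, beside a median of 0.01 over all kept probe sets. These genes are bright: of the 20 member probe sets, 17 were in the brightest quartile, where 57.9% of all probe sets lay below 0 and the median was -0.04. Taken by the brightest probe set of each subunit, the mean log2 signal of the 6 was 10.39, 10.39 and 10.41 on control arrays and 10.38, 10.38 and 10.35 on BAHD1 siRNA arrays. The subunit mean was lowest on the third BAHD1 siRNA array.

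MCM2, a subunit of the gate of the ring, had signals of 1857.4, 1951.6 and 1904.3 on control arrays and 1820.2, 1781.5 and 1683.2 on BAHD1 siRNA arrays. The groups did not overlap, yet the log2 difference of -0.11 had a 95% interval of -0.25 to 0.02 (limma, intensity-trend fit, adjusted p = 0.337). MCM5, its neighbour at that gate, was lower on both probe sets. Its dimmer probe set had 341.0, 409.4 and 420.0 against 344.7, 314.4 and 302.5, a log2 difference of -0.28 with a 95% interval of -0.48 to -0.07 that did not pass (limma, intensity-trend fit, adjusted p = 0.117). The first control array of MCM5 lay within the BAHD1 siRNA range. The brighter MCM5 probe set was tight in control cells, at 995.5, 992.1 and 982.1, and spread in BAHD1 siRNA cells, at 1025.2, 883.4 and 832.5, with a log2 difference of -0.12 that ran from -0.21 to -0.06 with 1 array left out.

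MCM3 had signals of 1400.0, 1363.5 and 1436.7 on control arrays and 1217.8, 1337.1 and 1463.3 on BAHD1 siRNA arrays, with the highest value of all in the latter group. Its log2 difference was -0.07 with a 95% interval of -0.23 to 0.09. MCM6, part of the catalytic core with MCM4 and MCM7, had 1738.4, 1646.0 and 1667.1 against 1786.4, 1730.7 and 1664.2 on its brighter probe set. This is a log2 difference of 0.04 with a 95% interval of -0.10 to 0.17, and the groups overlapped. The much dimmer MCM6 probe set, at 72.4 to 105.1 on control arrays and 72.6 to 91.6 on BAHD1 siRNA arrays, had -0.15 with a 95% interval of -0.50 to 0.20.

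For MCM7 and MCM4 the probe sets disagreed in sign. The brighter MCM7 probe set had 1579.0, 1652.6 and 1659.1 against 1634.7, 1714.5 and 1599.9, a log2 difference of 0.02, whereas the dimmer one had 1318.1, 1191.6 and 1098.1 against 1094.1, 1126.8 and 1006.8, a log2 difference of -0.16. The groups of both MCM7 probe sets overlapped. For MCM4, the second brightest probe set had 601.0, 631.7 and 577.7 against 528.1, 563.3 and 442.1, and every BAHD1 siRNA array was lower. Its log2 difference was -0.25 with a 95% interval of -0.44 to -0.05 (limma, intensity-trend fit, adjusted p = 0.142). The other MCM4 probe sets were at -0.15, -0.12 and 0.07, with overlapping groups, and the brightest of the 4 was the one above 0.

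**Figure D3:**
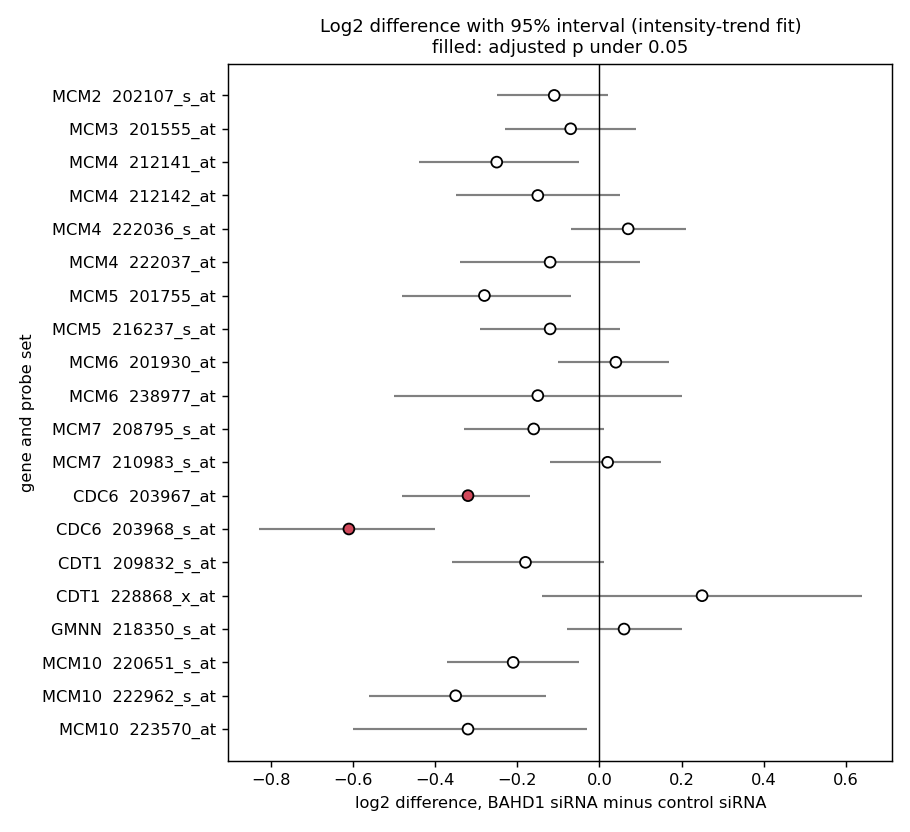
Log2 difference, BAHD1 siRNA minus control siRNA, of each of the 20 kept probe sets with its 95% interval from the intensity-trend fit; filled points have an adjusted p under 0.05. Only the 2 CDC6 probe sets are filled, 15 of the 20 points lie left of 0, and the probe sets of MCM4, MCM6, MCM7 and CDT1 fall on both sides.

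MCM10 encodes a replication factor that acts after loading, when the helicase starts to unwind DNA, and it was the most nearly called member after CDC6. All 3 of its probe sets were lower in BAHD1 siRNA cells. The dimmest had signals of 308.0, 327.9 and 298.2 on control arrays and 276.4, 241.5 and 219.1 on BAHD1 siRNA arrays. The groups were apart, with a log2 difference of -0.35 and a 95% interval of -0.56 to -0.13 (limma, intensity-trend fit, adjusted p = 0.0645). The brightest had 420.9, 441.6 and 441.7 against 375.4, 371.7 and 378.0, also apart and with little scatter, and a log2 difference of -0.21 (adjusted p = 0.118). The remaining MCM10 probe set had 342.8, 371.8 and 493.4 against 306.6, 370.8 and 285.6. It had overlapping groups and a log2 difference of -0.32 (adjusted p = 0.189), which was -0.16 without control replicate 3. The dimmest MCM10 probe set passed without BAHD1 siRNA replicate 1 (adjusted p = 0.0305), with the stricter filter (0.0392), with array weights (0.0426), with array medians centred (0.0197) and with the replicate number as a block (0.0468). Over all probe sets tested, 4.12%, 11.7%, 5.54%, 6.22% and 5.93% passed in these settings, in that order, against 4.45% as reported. The dimmest MCM10 probe set did not pass under the other alternatives run, where the adjusted p reached 0.235 without BAHD1 siRNA replicate 3, at a log2 difference of -0.27.

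The direction of the 10 genes depended on the probe set taken for each gene, and no test was made of them as a group. Of the 20 kept probe sets 15 lay below 0, against 48.0% of all kept probe sets, and their median was -0.15. In 6 of the 20, every BAHD1 siRNA array lay below every control array, and none showed the opposite. Over all kept probe sets 12.2% were separated downwards and 13.4% upwards, and in the brightest quartile 20.5% were separated downwards. When each gene was read by its brightest probe set, 5 of the 10 lay below 0, against 45.6% of all 12529 genes, and the median was -0.03, beside 0.02 over all genes. That median was 0.01 after quantile normalisation, 0.02 after cyclic loess and 0.01 without BAHD1 siRNA replicate 1. With the mean of all kept probe sets per gene, 8 of the 10 lay below 0, the median was -0.09 and CDC6 again was the single member that passed, beside a median of 0.03 and 3.61% passing over all genes. Of the 7 members with more than 1 kept probe set, the brightest one had the highest log2 difference in 6, all but CDC6, and in 4 the probe sets differed in sign.

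**Figure D4:**
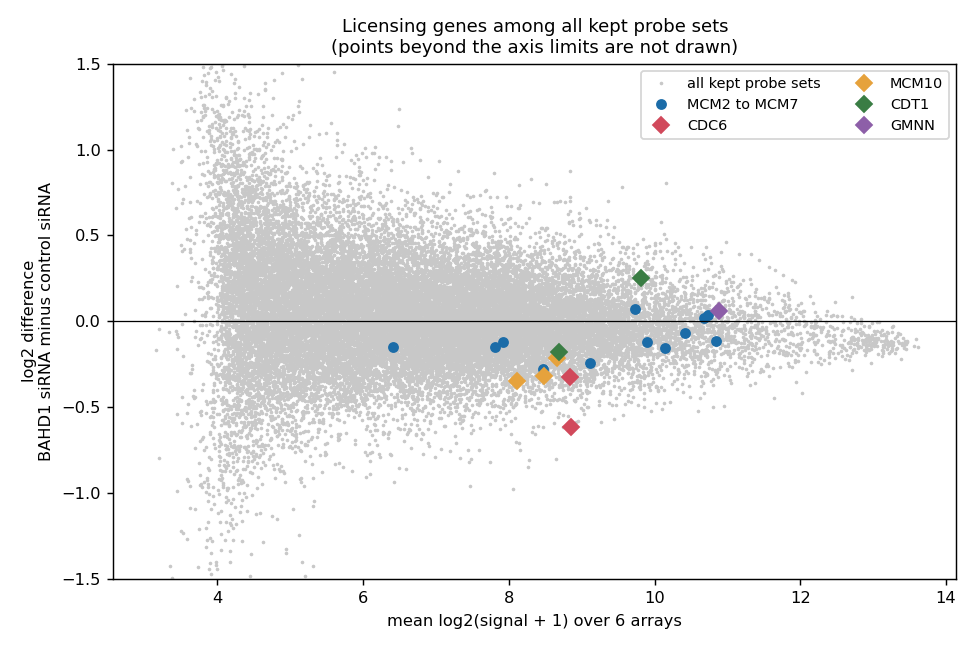
Log2 difference, BAHD1 siRNA minus control siRNA, against the mean log2(signal + 1) over 6 arrays for all 27458 kept probe sets (grey) and the members (coloured). The members lie at medium to high signal, CDC6 at -0.61 and -0.32 lies lowest or near lowest among them, and differences beyond 1.5 in size are not drawn.

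Other genes of replication and the cell cycle were taken from 8 lists with 115 genes, of which 111 were measured. Of these, 8 fell, 5 rose and 98 did not pass (intensity-trend fit), against 5.52% of all genes read by their brightest probe set, and 0 passed in the limma fit with one prior. The median over the 111 was -0.04. With any probe set counted 17 of the 111 passed, against 7.68% of all genes. The 4 genes added were SKP2 (-0.40), RPA1 (-0.36), RFC5 (-0.28) and CCND2 (-0.85), each lower on 1 dimmer probe set, while their brightest ones did not pass. The 13 calls dropped to 1 without control replicate 1, to 4 without control replicate 2 and to 1 without BAHD1 siRNA replicate 2 or 3. Calls over all probe sets dropped as well, from 1221 to 295, 279, 186 and 177. Of the 13, CCNF alone kept its call in all 6 omissions, and DTL and TYMS lost theirs in every one. With array medians centred, the calls on RB1 (0.32), KIF11 (0.24) and HMMR (0.27) were lost (limma adjusted p = 0.128, 0.221 and 0.146). Below, each gene is read by its brightest probe set unless another is named.

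The factors that work next to CDC6 at origins did not pass. Of the 6 measured genes of the origin recognition complex, 3 were lower and 3 higher, and the smallest p belonged to ORC3, at -0.23 (limma, intensity-trend fit, adjusted p = 0.106). The paralogue MCM8, a helicase of homologous recombination, had signals of 269.8, 277.9 and 292.4 against 234.8, 231.4 and 238.5, a log2 difference of -0.25 without overlap (adjusted p = 0.108). Among 14 genes that activate the loaded ring, 9 were lower and the median was -0.09. CDC45, which joins MCM2 to MCM7 in the active helicase, had 1068.6, 998.7 and 935.8 against 904.9, 824.9 and 685.7, a log2 difference of -0.32 without overlap (adjusted p = 0.0731).

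Among 11 genes that control the turnover of CDT1 and CDC6 proteins, 1 fell and 1 rose. DTL, the substrate receptor that marks CDT1 for destruction during S phase, fell by 0.23, from 1334.9, 1351.7 and 1350.5 to 1176.3, 1121.8 and 1139.6 (limma, intensity-trend fit, adjusted p = 0.0484). FBXO5, which encodes EMI1, an inhibitor of the ubiquitin ligase that degrades geminin, rose by 0.55 ± 0.11 (SE), from 514.0, 459.9 and 638.8 to 679.7, 838.0 and 833.0 (adjusted p = 0.0226). Its second probe set was at -0.02. The list's median was 0.11, with 7 of 11 higher.

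Of 26 replicative polymerase and fork genes 1 fell by its brightest probe set, FEN1, the nuclease that trims Okazaki fragments, by 0.40 ± 0.09 (SE; adjusted p = 0.0327), and its other probe set was at -0.13. The sliding clamp gene PCNA was at -0.03. Among 13 E2F and pocket protein genes, TFDP2, a dimer partner of E2F, fell by 0.46 ± 0.09 and the tumour suppressor gene RB1, which restrains E2F, rose by 0.45 ± 0.12. The second RB1 probe set was at -0.12, and those of TFDP2 reached -0.06. E2F1 itself was at -0.38, with its other probe set at 0.01, and did not pass. The median of the E2F and pocket protein list was 0.18, with 8 of 13 higher.

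Among 18 other genes of the G1 to S transition, the phosphatase gene CDC25A and the thymidylate synthase gene TYMS fell by 0.28 and 0.25, and CDKN1C, which encodes the CDK inhibitor p57, rose by 0.66 ± 0.15, with its other 3 probe sets at 0.14 or above and not past the threshold. The cyclin gene CCNE1 was at 0.07 and CCNA2 at 0.01, and neither passed. Of 20 G2 and M phase genes, CCNF fell by 0.79 ± 0.13, from 160.1, 167.3 and 171.2 to 98.5, 109.0 and 81.3, the largest change in the 8 lists by brightest probe set. CCNF encodes cyclin F, a ubiquitin ligase subunit that targets CDC6 among others. AURKB and TPX2 fell by 0.38 and 0.30, whereas the mitotic genes KIF11 and HMMR rose by 0.37 and 0.41, with the other HMMR probe set at -0.03. The median of the G2 and M list was -0.10, with 14 of 20 lower.

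**Figure D5:**
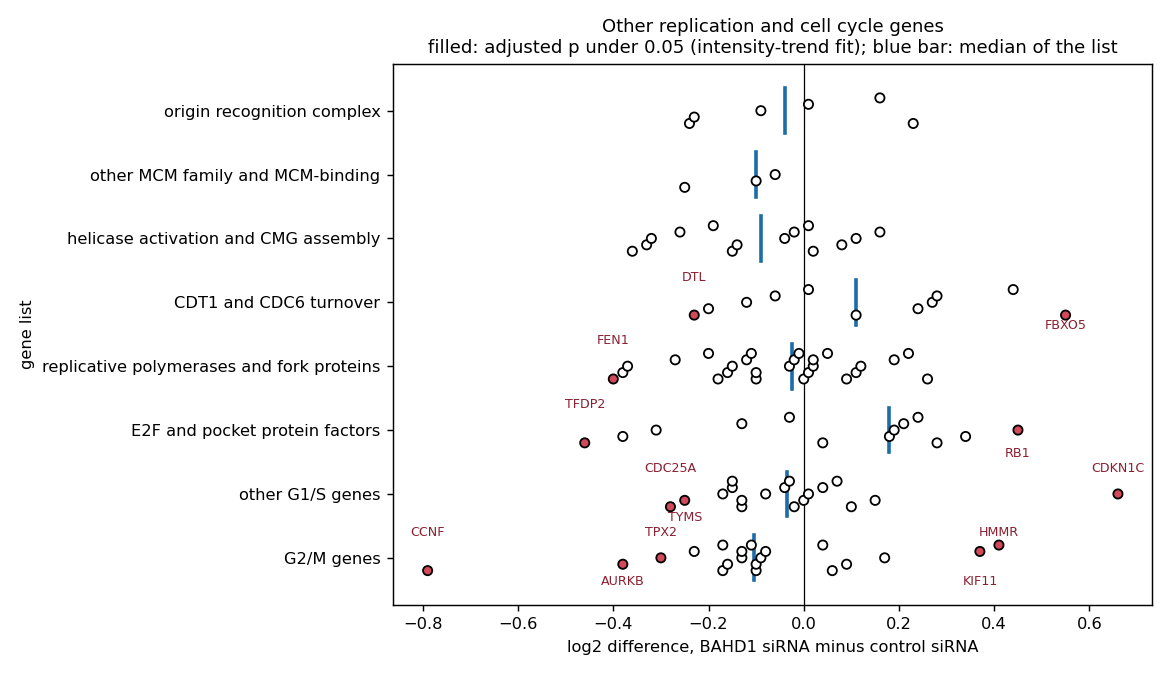
Log2 difference, BAHD1 siRNA minus control siRNA, of 111 genes in 8 lists, each read by its brightest probe set; filled and named points have an adjusted p under 0.05 in the intensity-trend fit and blue bars are list medians. Medians run from -0.10 to 0.18, and 8 named genes lie left of 0 and 5 right of it.

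By Pearson correlation over the 6 arrays with the mean log2 signal of MCM2 to MCM7, the 5 genes most like it were FOLR1 (r = 0.995), PGM2 (0.993), BTN3A2 (0.99), NPL (0.99) and RAB18 (0.986). All 5 were lower without overlap, at log2 differences of -0.31, -0.18, -0.45, -0.25 and -0.13, and none passed. Over all kept probe sets 12.2% were separated downwards. The 5 were picked on these same arrays, where the helicase mean was itself lower on every BAHD1 siRNA array. Their separation thus largely follows from the choice. The points share arrays and scaling, the helicase mean moved little, and the order is a description of 6 arrays.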

How the data were processed

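The deposited intensity values, 1 for every probe set on each array, are linear and have no log. GCOS and GCRMA appear in the submitters' processing notes with neither version nor role, and the writer of the table is unknown here. In the deposited values every array has a mean of 100 once its highest and lowest 2% are left out, which is how GCOS scales, and no GCRMA step can be seen. Per the labels' protocols, 5 μg of total RNA was labelled from oligo(dT) primers.

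Samples were grouped and numbered by title. The 62 control probe sets were left out. Tests used log2(value + 1), which shrinks changes of dim probe sets. A probe set was kept when above the median signal, 17.9, on at least 3 of 6 arrays. This kept 27458, of which 23546 carry 1 gene in the platform annotation. Fits used limma 3.58.1 in R 4.3.3 on all kept probe sets, with one variance prior (eBayes) and with trend and robust settings (the intensity-trend fit), both without covariates, Benjamini-Hochberg adjusted at 0.05. Exact permutation tests were two-sided. The intensity-trend fit is stressed because it was already known to make calls.

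On simulated arrays of 27458 probe sets, a log2 change of 0.5 was recovered in 43.8% of cases by the intensity-trend fit and 0.975% by the fit with one prior, and a change of 1 in 77% and 50.9%. Spreads came from the intensity-trend fit, which favours it. Fewer probe sets were given a change there than the 1221 called in these data, and recovery depends on that share. False calls in the simulation are not given here. Precision is limited by the number of arrays. Identical values made up at most 0.291% of any pair of arrays. Replicate numbers were not taken to pair the samples. Pairing is not excluded by the small correlations given below.

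The members and the lists were chosen with earlier results of these data known. Named genes were all members, each related gene past the threshold or else the smallest p of its list, and the 5 most like MCM2 to MCM7. PCNA, E2F1, CCNE1, CCNA2, SKP2, RPA1, RFC5 and CCND2 were named outside this rule, chosen after their values were seen. Promoter sequences are from RefSeq.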

Additional observations from a re-analysis of the deposited data

Results flagged for a closer look

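Of 4 kinds of control probe sets outside the main measurement, 2 were higher on BAHD1 siRNA arrays. The 24 poly-A RNA control probe sets, added before labelling, differed by 0.59 in mean log2 signal (8.63 ± 0.12 against 9.21 ± 0.17, SD, n = 3 each), with an exact two-sided permutation p of 0.1, the smallest possible. The 3 probe sets for 28S ribosomal RNA differed by 0.74 (exact two-sided permutation p = 0.1), with 2 of the 3 not overlapping. The 18 hybridisation controls were at -0.15 (p = 0.4) and the 3 probe sets for 18S ribosomal RNA at 0.14 (p = 0.6), by the same exact permutation test and with overlap in every probe set. Their part in the members' results was not tested.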

How the results depend on the processing

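In the fit with one prior, 0 members passed except with the stricter filter (2, both of CDC6, among 1147 of 13876 probe sets). In the intensity-trend fit 2 member probe sets passed, 1 without a filter, 5 with centred medians, and 1 to 3 with 1 array left out. Over all probe sets tested 4.45% passed, 0.729% without a filter, 6.22% with centred medians, and 0.645% to 4.28% with 1 array left out. The s_at probe set of CDC6 passed in that fit under every alternative run, at -0.75 to -0.59 with all arrays. For the related lists the count of 13 was 4 without a filter, 6 with gene means and 1 to 12 with 1 array left out. The median over the 10 members was -0.16 with centred medians, which moved the median of all genes to -0.11, and -0.04 to 0.01 with 1 array left out. Centring also turned the sign of the brightest probe sets of MCM4 (-0.07), MCM6 (-0.10) and MCM7 (-0.12) and GMNN (-0.08), and gene means that of MCM4 (-0.11), MCM6 (-0.06) and MCM7 (-0.07). The brightest MCM7 probe set ran from -0.01 to 0.04 with 1 array left out. Centring subtracts a constant from each array and so moved all log2 differences down together, and gene means average in the lower probe sets. Why the array medians differed was not tested. Over all single values and alternatives, 382 comparisons kept direction and side of the threshold, 73 lost the call, 7 gained one and 9 changed sign. Quantile normalisation, cyclic loess, array weights and log2(value + 16) are among them. Deviations of same-numbered arrays correlated at 0.0101, 0.0102 and 0.0239, so the numbers were not taken to pair the samples. With the replicate block 3 member probe sets passed (2 of CDC6, 1 of MCM10) and 16 related genes, while 5.93% of all probe sets passed. Detection calls were not used here, so signal over background is unknown.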
